A study of Homo sapiens with 6 samples.

Results

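The let-7 microRNA loci and LIN28B, the RNA-binding protein that holds back let-7 maturation, were followed in neuroblastoma cells given an inhibitor of serine synthesis. Rows of the deposited table were taken where the platform annotation names LIN28B or one of 9 let-7 loci. Of these 10 symbols, 9 had a row, LIN28B and 8 let-7 loci, out of 14779 genes tested. MIRLET7B was not analysed here. Each of the 9 had 1 row.

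The cells were BE(2)-C, an established human neuroblastoma line grown in medium with serum. In the NCT-503 group, 3 independent samples received 10 µM NCT-503, a small-molecule inhibitor of the serine synthesis enzyme PHGDH, for 2 days. In the DMSO group, 3 independent samples received the vehicle for the same time. Total RNA of each sample went on 1 Affymetrix whole-transcript array.

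LIN28B and its paralog LIN28A bind the loop of let-7 precursors through a cold-shock domain and a pair of zinc knuckles. This blocks their cutting and marks them for uridylation and decay. Mature let-7 in turn represses LIN28B and growth genes such as HMGA2, MYCN and the IGF2BP family, so each side of the circuit lowers the other. In neuroblastoma LIN28B has been described as an oncogene that keeps let-7 low and MYCN high, which was not tested in these cells.

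The mature 5p strands, and for MIR202 the 3p strand, show what the family shares and how alike the loci are. Sequences are from RefSeq, on GRCh38.p14, and capitals mark the seed (bases 2 to 8), the stretch that pairs with targets.
let-7a-5p (MIRLET7A1, MIRLET7A2, MIRLET7A3): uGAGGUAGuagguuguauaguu
let-7c-5p (MIRLET7C): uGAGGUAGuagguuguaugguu
let-7d-5p (MIRLET7D): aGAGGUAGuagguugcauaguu
let-7e-5p (MIRLET7E): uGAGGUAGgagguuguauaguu
let-7f-5p (MIRLET7F1, MIRLET7F2): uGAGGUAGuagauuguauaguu
let-7g-5p (MIRLET7G): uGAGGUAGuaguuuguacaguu
let-7i-5p (MIRLET7I): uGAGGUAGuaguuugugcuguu
miR-98-5p (MIR98): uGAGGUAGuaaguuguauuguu
miR-202-3p (MIR202): aGAGGUAUagggcaugggaa

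All loci above except MIR202 carry the seed GAGGUAG, which 11 of 2370 mature microRNA names in the table have. Against let-7a, with positions counted from the 5′ end, let-7c differs by A19G, let-7e by U9G and let-7f by G12A. The strand of let-7d differs by U1A and U16C, and that of let-7i by G12U, A17G, U18C and A19U. MIRLET7A1, MIRLET7A2 and MIRLET7A3 give an identical 5p strand, as do MIRLET7F1 and MIRLET7F2. Hairpins of the family were up to 85.7% identical (MIRLET7A1 and MIRLET7F2). The probe sequences were not used here, so cross-hybridisation between loci was not tested, and signal of a hairpin, its primary transcript and its mature strand cannot be told apart.

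All values below are deposited log2 values, and a change is the NCT-503 mean less the DMSO mean, given with the standard error (SE) that limma fitted from 3 arrays in each group. A gene was called at a Benjamini-Hochberg adjusted p under 0.05 over all 14779 genes. By that rule 17.1% of all genes were lower and 16.4% were higher with NCT-503, and array medians lay between 4.30 and 4.33. Higher calls were 48.8% of all calls, and 60.4% when arrays were centred on their 75th percentile. The labels call the samples independent without naming cultures, and the p-values cover only the spread among these samples, which may be technical. Fewer molecules per cell and fewer cells holding them cannot be told apart in bulk RNA.

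Markers fixed for the cell type were bright on average. The 10 measured neuroblastoma markers averaged 8.97 to 9.05 in the NCT-503 arrays and 9.13 to 9.20 in the DMSO arrays. Of them 4 fell, CHGA (-1.23), CHGB (-1.13), HAND2 (-0.30) and ISL1 (-0.29), and 3 rose, PHOX2A (0.75), DBH (0.37) and GATA3 (0.37). These are 40% and 30% of the 10, beside 17.1% and 16.4% of all genes. TH was less bright, with means of 5.88 in NCT-503 and 6.05 in DMSO, and was not called. The 3 measured Schwann cell markers averaged 4.15 to 4.28 in the NCT-503 arrays and 4.17 to 4.35 in the DMSO arrays. The 2 measured fibroblast markers averaged 5.56 to 5.73 and 5.97 to 6.06 in the same order. Of these, DCN fell (-0.47, limma adjusted p = 0.00687). The brighter LUM, with means of 6.98 and 7.22, changed by -0.24 and was not called. The 2 measured leukocyte markers averaged 5.74 to 6.01 in the NCT-503 arrays and 4.57 to 5.11 in the DMSO arrays. That shift lay in CD68, a lysosomal protein, which rose by 2.25, whereas CD14 changed by -0.09 and was not called. The part of these markers in the results below was not tested.

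LIN28B was lower with NCT-503. It read 8.36, 8.22 and 8.39 in NCT-503 samples a, b and c, against 8.93, 8.97 and 9.02 in DMSO samples a, b and c. All 3 treated samples lay below all 3 vehicle samples. The change was -0.65 ± 0.08 (SE, adjusted p = 0.000957), so DMSO cells held 1.57 times the NCT-503 level, with a 95% interval of the change from -0.84 to -0.46. Both groups were far above the array medians, so LIN28B remained a bright row in treated cells.

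LIN28B-AS1, a noncoding RNA annotated across LIN28B, was lower too. It read 5.34, 5.01 and 5.07 in the NCT-503 samples, against 6.19, 5.69 and 6.19 in the DMSO samples, without overlap. It fell by 0.89 ± 0.16 (SE, adjusted p = 0.00485). No source used here says whether the array separates the strands of these overlapping genes. The paralog LIN28A, typical of embryonic stem cells, read 3.32, 3.27 and 3.37 in the NCT-503 samples, against 3.32, 3.37 and 3.37 in the DMSO samples. Its change of -0.03 was not called, and its interval ran from -0.20 to 0.14. LIN28A was below the array medians in both groups and could not be set against a background, so little can be read from this row.

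**Figure D1:**
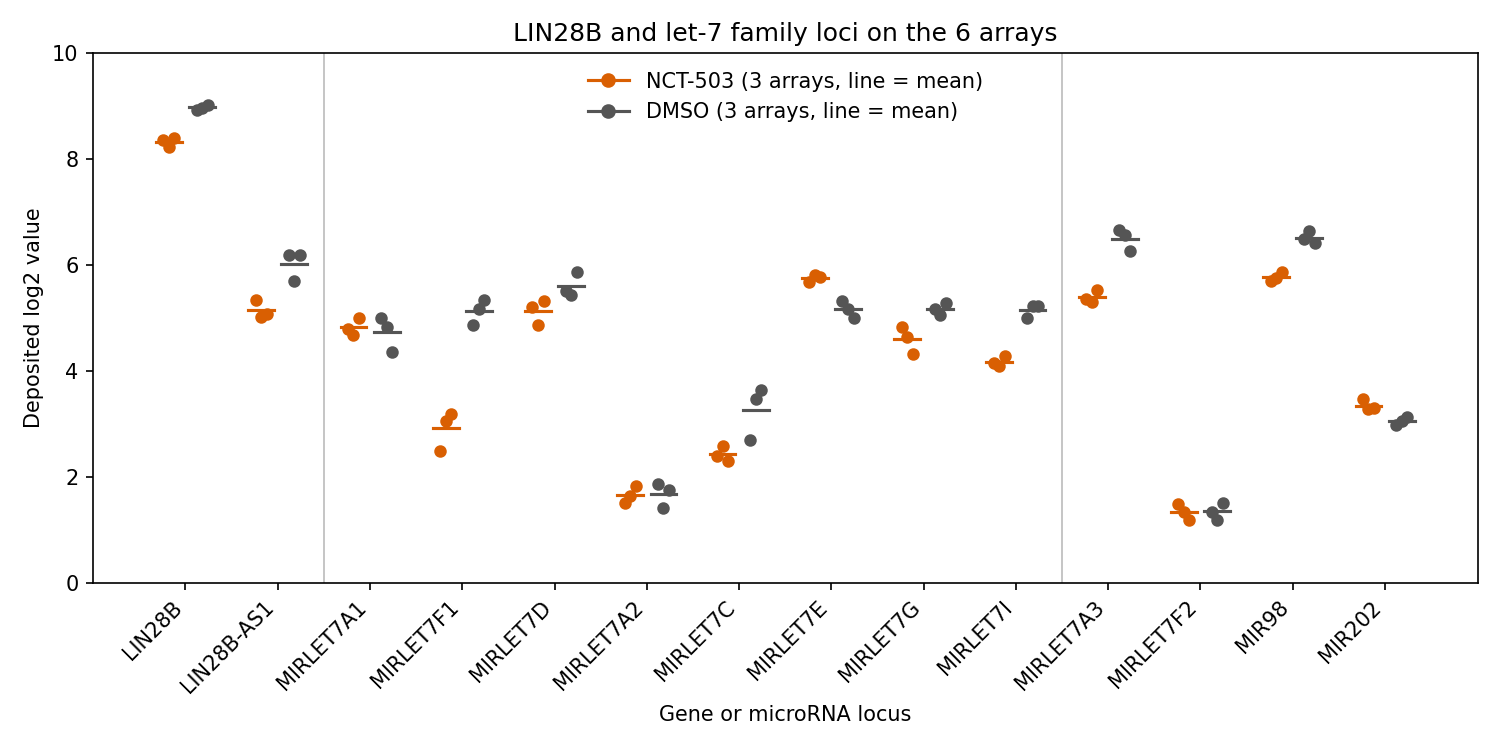
Deposited log2 values of LIN28B, LIN28B-AS1, the 8 let-7 loci of the rule and 4 further family loci, with 1 point per array and a line at the group mean; NCT-503 is left of DMSO for each locus. LIN28B and MIRLET7F1 show no overlap of groups, whereas MIRLET7A1, MIRLET7A2 and MIRLET7F2 overlap. Levels of different rows are not comparable with each other.

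Among the 8 let-7 loci, 4 fell with NCT-503 (MIRLET7F1, MIRLET7I, MIRLET7C and MIRLET7G), 1 rose (MIRLET7E) and 3 did not pass. The median change of the 8 was -0.52, beside 0.06 over all genes tested. Of the 1020 microRNA genes on the array, 163 (16.0%) were lower and 67 (6.57%) were higher, with a median change of 0.00. Groups did not overlap in 6 of the 9 members below and in 1 above, beside 22.4% and 25.4% of all genes.

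MIRLET7F1 had the largest change of the let-7 loci. It read 2.49, 3.06 and 3.19 in the NCT-503 samples, against 4.86, 5.17 and 5.34 in the DMSO samples. The lowest vehicle sample thus stood well above the highest treated one. It fell by 2.21 ± 0.20 (SE, adjusted p = 0.000295), so DMSO cells held 4.62 times the NCT-503 level. Its NCT-503 values are low on the deposited scale and could not be set against a background, so the size of the change may be understated. Of the 1020 microRNA genes, 36 had a lower change.

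MIRLET7I, which stands on chromosome 12 without a second let-7 hairpin nearby, was lower as well. It read 4.14, 4.08 and 4.27 in the NCT-503 samples, against 4.99, 5.23 and 5.22 in the DMSO samples. Values within each group were close, and the groups did not overlap. MIRLET7I fell by 0.98 ± 0.10 on the log2 scale (SE, adjusted p = 0.00039).

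MIRLET7C and MIRLET7G fell with less margin. MIRLET7C read 2.39, 2.57 and 2.30 in the NCT-503 samples, against 2.69, 3.47 and 3.63 in the DMSO samples. The row was dim, as only 13% of genes had a lower mean, and the filter on dim genes removed it. Its DMSO samples were spread out (SD 0.503), and sample a came close to the treated ones. The change was -0.85 ± 0.23 (adjusted p = 0.0285), and leaving out NCT-503 a (adjusted p = 0.0752), NCT-503 c (0.0871), DMSO b (0.0833) or DMSO c (0.0774) ended the call. MIRLET7G read 4.83, 4.63 and 4.31 in the NCT-503 samples, against 5.16, 5.05 and 5.28 in the DMSO samples. All treated samples were below all vehicle samples, with a change of -0.58 ± 0.14 (adjusted p = 0.0171). That call was lost without DMSO a (0.0504) or DMSO c (0.0578). Without DMSO c, 2 let-7 loci in place of 4 were called lower.

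MIRLET7E went the other way. It read 5.68, 5.80 and 5.77 in the NCT-503 samples, against 5.32, 5.17 and 4.99 in the DMSO samples. Each treated sample was above each vehicle sample, and the locus rose 1.51-fold (0.59 ± 0.10, SE, adjusted p = 0.00417). Of all microRNA genes, 37 had a higher change.

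The remaining 3 loci did not pass. MIRLET7D read 5.20, 4.86 and 5.32 in the NCT-503 samples, against 5.50, 5.43 and 5.86 in the DMSO samples. The groups did not overlap, but the adjusted p of its change of -0.47 ± 0.16 was 0.0549. MIRLET7A1 read 4.79, 4.67 and 5.0 in the NCT-503 samples, against 4.99, 4.83 and 4.35 in the DMSO samples, which overlap. Its change was 0.10, with an interval from -0.31 to 0.51. MIRLET7A2 read 1.51, 1.64 and 1.83 in the NCT-503 samples, against 1.87, 1.40 and 1.74 in the DMSO samples. That row is near the bottom of the scale in both groups (change -0.01, interval from -0.34 to 0.33), so little can be read from it.

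On chromosome 9, 3 of the loci lie side by side on the plus strand, with 310 bases between MIRLET7A1 and MIRLET7F1 and 2400 between MIRLET7F1 and MIRLET7D. Their changes were 0.10, -2.21 and -0.47. All 3 overlap the annotated host transcript MIRLET7A1HG, not analysed here, and MIRLET7D also overlaps LINC02603, which changed by -0.16 (adjusted p = 0.58). The hairpins of this cluster, from RefSeq, show the loop that LIN28 proteins recognise. Capitals mark GGAG, the motif bound by the zinc knuckles, and UGAU, a form of the motif bound by the cold-shock domain, where they occur between the mature arms. MIRLET7E, which rose, and MIRLET7I, which fell, are added for comparison.
MIRLET7A1, chr9:94175957-94176036, plus strand: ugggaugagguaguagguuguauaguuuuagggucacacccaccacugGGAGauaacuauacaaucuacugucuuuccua
MIRLET7F1, chr9:94176347-94176433, plus strand: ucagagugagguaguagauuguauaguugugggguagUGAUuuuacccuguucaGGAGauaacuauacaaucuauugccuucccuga
MIRLET7D, chr9:94178834-94178920, plus strand: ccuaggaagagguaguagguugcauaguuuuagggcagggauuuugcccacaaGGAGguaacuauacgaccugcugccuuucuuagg
MIRLET7E, chr19:51692786-51692864, plus strand: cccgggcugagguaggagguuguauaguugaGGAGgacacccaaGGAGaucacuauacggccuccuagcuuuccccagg
MIRLET7I, chr12:62603686-62603769, plus strand: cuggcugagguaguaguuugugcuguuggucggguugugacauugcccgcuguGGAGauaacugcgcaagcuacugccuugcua

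GGAG stood between the arms in 8 of 11 measured family hairpins with both arms listed, and in 8.12% of 739 hairpins of the table. It was in all 8 loci of the rule that had a row, those that fell, MIRLET7E that rose and those that did not pass, and not in MIRLET7B, which had none. UGAU stood there in MIRLET7F1 and MIRLET7G, in MIRLET7B, which had no row, and in 8.66% of the 739 hairpins. Motifs were read on the RNA strand only, do not overlap each other, and are letters in a window, not measured binding.

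Changes of neighbouring loci were set against each other within arrays. The change of MIRLET7A1 minus that of MIRLET7F1 was 2.30, and within each array the difference between these rows did not overlap between the groups. MIRLET7F1 minus MIRLET7D gave -1.74, and MIRLET7A1 minus MIRLET7D gave 0.57, both also without overlap. In all, 13 pairs of neighbouring microRNA loci were compared and 6 did not overlap. Of all genes taken singly, 25.4% did not overlap with NCT-503 above and 22.4% with NCT-503 below. Differences between rows that are not neighbours were not examined. The 6 include the chromosome 9 pairs, which share loci and are not separate results. They also include MIRLET7F2 minus MIR98 (0.73), where MIRLET7F2 is near the bottom of the scale. An exact two-sided permutation test gave p = 0.1 for each of the 6, and 0.217 after adjustment over the 13 pairs. With 3 against 3 arrays 0.1 is the smallest p possible, so no pair could pass and the test cannot decide whether neighbours differ.

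On chromosome 19, MIRLET7E lies between MIR99B and MIR125A, 104 and 389 bases away, within the span of SPACA6, a sperm-egg fusion gene. MIR99B did not pass (-0.05), and MIR125A changed by 0.48 with an adjusted p of 0.0725. SPACA6 changed by -0.20 and did not pass either (adjusted p = 0.192). The change of MIR99B minus that of MIRLET7E was -0.64 and the groups did not overlap, whereas MIRLET7E and MIR125A differed by 0.11 with overlap. MIR125A was dim, with means of 2.64 in NCT-503 and 2.15 in DMSO, so little can be read from its row.

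On chromosome 21, MIRLET7C follows MIR99A by 658 bases within the noncoding host transcript MIR99AHG. MIR99A changed by -0.36 (adjusted p = 0.0541), MIR99AHG by -0.37 (0.0849) and MIR125B2 by -0.26 (0.373). None of the 3 passed, and their changes and that of MIRLET7C were all below 0. On chromosome 11, MIRLET7A2 lies in MIR100HG, which rose by 0.40 ± 0.08 (adjusted p = 0.00883). MIR100 (-0.04) and MIR125B1 (0.02) in the same host did not pass. MIR100 was near the bottom of the scale, between 1.79 and 2.13 on all arrays. MIR125B1 was spread out, with an interval from -0.88 to 0.93, so little can be read from either row. On chromosome 3, WDR82, a histone methyltransferase subunit whose span holds MIRLET7G, changed by 0.06 with an interval from -0.11 to 0.24.

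**Figure D2:**
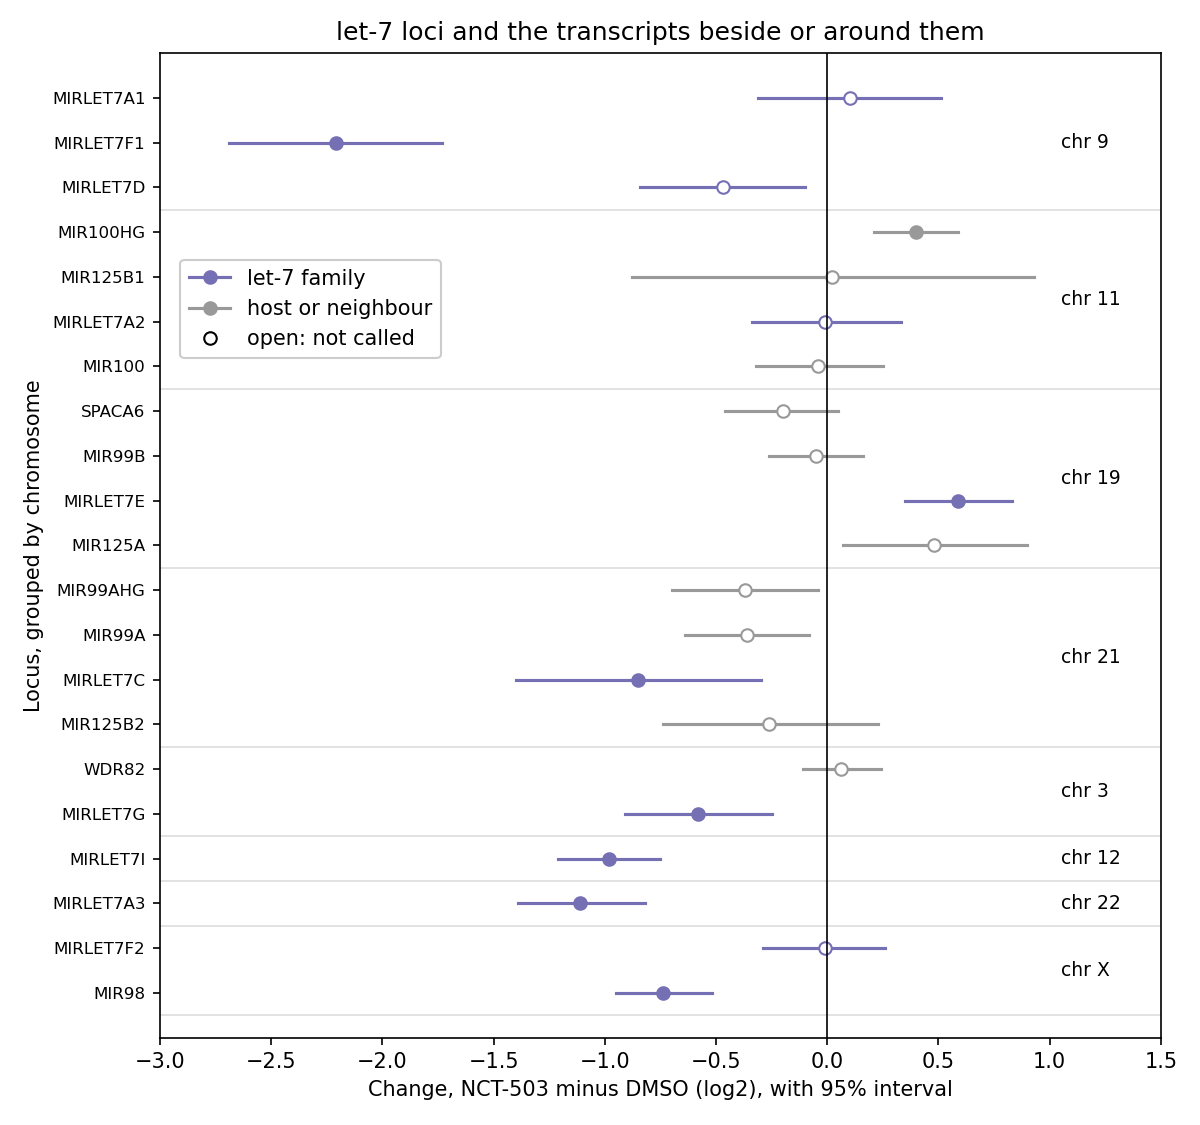
Change in log2 value (NCT-503 minus DMSO, horizontal axis) with its 95% interval for let-7 family loci and the measured transcripts beside or around them, grouped by chromosome; open points were not called. MIRLET7F1 at -2.21 stands apart from MIRLET7A1 at 0.10 in the same cluster, and MIRLET7E at 0.59 is the let-7 family locus plotted here that was called higher.

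Further family loci with a row were MIRLET7A3, MIR98, MIRLET7F2 and MIR202. MIRLET7A3 read 5.36, 5.29 and 5.52 in the NCT-503 samples, against 6.65, 6.57 and 6.27 in the DMSO samples. It fell by 1.11 ± 0.12 (SE, adjusted p = 0.000586), although its mature strand is the one that MIRLET7A1 and MIRLET7A2 give. MIR98 read 5.69, 5.75 and 5.87 in the NCT-503 samples, against 6.49, 6.63 and 6.41 in the DMSO samples, and fell by 0.74 ± 0.09 (adjusted p = 0.000994). Both showed no overlap of the groups.

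MIRLET7F2, 850 bases from MIR98 on chromosome X, ranged from 1.18 to 1.48 in the NCT-503 samples, against 1.18 to 1.51 in the DMSO samples. Its change of -0.01 was not called, and its values are near the bottom of the scale in both groups. The 3p strand of MIR202 has the seed GAGGUAU, which differs in its last base. MIR202 read 3.47, 3.27 and 3.29 in the NCT-503 samples, against 2.97, 3.05 and 3.13 in the DMSO samples. Its rise of 0.29 ± 0.09 was called (adjusted p = 0.0423). Dropping any array ended the call, with an adjusted p of 0.0613 without NCT-503 c, the lowest, and 0.128 without DMSO a, the highest. Over all 12 measured family loci, 6 fell and 2 rose, MIRLET7E and MIR202, which is 50% and 16.7% beside 17.1% and 16.4% of all genes and 16.0% and 6.57% of microRNA genes. The MIR202 call was kept in 4 of 16 alternatives.

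Genes that mature or use let-7 were lower or did not pass. Of 36 listed, 22 were measured, 10 fell and 0 rose by limma, beside 17.1% and 16.4% of all genes. None was higher at an unadjusted p under 0.05 either, and 1 was called higher with limma's trend and robust settings. The median change of the 22 was -0.20. DROSHA, DICER1, TUT4, TUT7 and the Argonautes were not analysed here.

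DGCR8, which guides DROSHA to primary microRNAs, had the largest change of the list. It read 3.42, 3.70 and 3.90 in the NCT-503 samples, against 6.61, 6.42 and 6.21 in the DMSO samples. The groups lay far apart, and DGCR8 fell by 2.74 ± 0.15 (SE, adjusted p = 4.62e-05). DDX5 and DDX17, helicases of the same nuclear step, fell by 0.94 and 0.64, and the helicase DHX9 fell by 0.61. BCDIN3D, an RNA methyltransferase that acts on microRNA precursors, fell by 0.99, and METTL1, which places 7-methylguanosine in RNA and has let-7 among its reported substrates, fell by 0.57. The silencing scaffolds TNRC6A, TNRC6B and TNRC6C fell by 0.73, 0.59 and 0.83. ZC3H7A fell by 0.59.

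Other genes of the list did not pass. XPO5, the exporter of precursors, changed by -0.07, and TARBP2, a partner of DICER1, by -0.01. DIS3L2, the exonuclease that degrades uridylated let-7 precursors, read 6.97, 6.97 and 6.93 in the NCT-503 samples, against 7.00, 6.95 and 6.92 in the DMSO samples. Its change was 0.00, with an interval from -0.17 to 0.16. TRIM25, a cofactor of precursor uridylation, changed by -0.13, TENT2, which adds single nucleotides to RNA ends, by 0.15, and KHSRP, which promotes let-7 maturation, by -0.16.

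Known let-7 targets went mostly down where they changed. Of 56 listed targets, 38 were measured, 15 fell and 5 rose, which is 39.5% and 13.2% beside 17.1% and 16.4% of all genes. The median change of the 38 was -0.12. MYCN, TRIM71 and DICER1 were not analysed here.

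Among the measured targets the largest fall was that of CCNF, cyclin F, which fell by 1.71 ± 0.14 (SE, adjusted p = 0.000178). It read 6.0, 5.85 and 5.48 in the NCT-503 samples, against 7.56, 7.40 and 7.49 in the DMSO samples. The phosphatase CDC25A fell by 1.14, the transcription factor E2F2 by 1.13, the ribonucleotide reductase subunit RRM2 by 1.11, the replication nuclease DNA2 by 0.91 and the mitotic kinase AURKB by 0.71. PLAGL2, a zinc finger factor, fell by 0.73.

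The oncofetal RNA-binding proteins of the IGF2BP family are classical let-7 targets. IGF2BP3 read 7.12, 7.16 and 7.18 in the NCT-503 samples, against 8.26, 8.33 and 8.36 in the DMSO samples. It fell by 1.16 ± 0.07 (adjusted p = 7.13e-05), and IGF2BP1 fell by 0.53 ± 0.09 (adjusted p = 0.00316). IGF2BP2 was dim, between 2.15 and 2.78 on all arrays, and changed by 0.15 without passing.

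HMGA2, the chromatin protein most often used as a let-7 readout, was not called. It read 4.35, 4.22 and 4.31 in the NCT-503 samples, against 4.19, 4.20 and 3.95 in the DMSO samples. Every treated value was slightly above every vehicle value, with a change of 0.18 and an interval from -0.04 to 0.40 (adjusted p = 0.187). Its relative HMGA1 changed by 0.22 (adjusted p = 0.117).

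The 5 targets that rose were IRS2, CDC34, PBX3, COIL and LRIG2. IRS2, an adaptor of the insulin receptor, read 7.20, 7.18 and 7.23 in the NCT-503 samples, against 5.79, 5.71 and 5.59 in the DMSO samples. It rose 2.85-fold (1.51 ± 0.08, SE, adjusted p = 4.44e-05). CDC34, a ubiquitin-conjugating enzyme, rose by 0.57, the homeobox factor PBX3 by 0.41, coilin (COIL) by 0.38 and LRIG2 by 0.28.

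**Figure D3:**
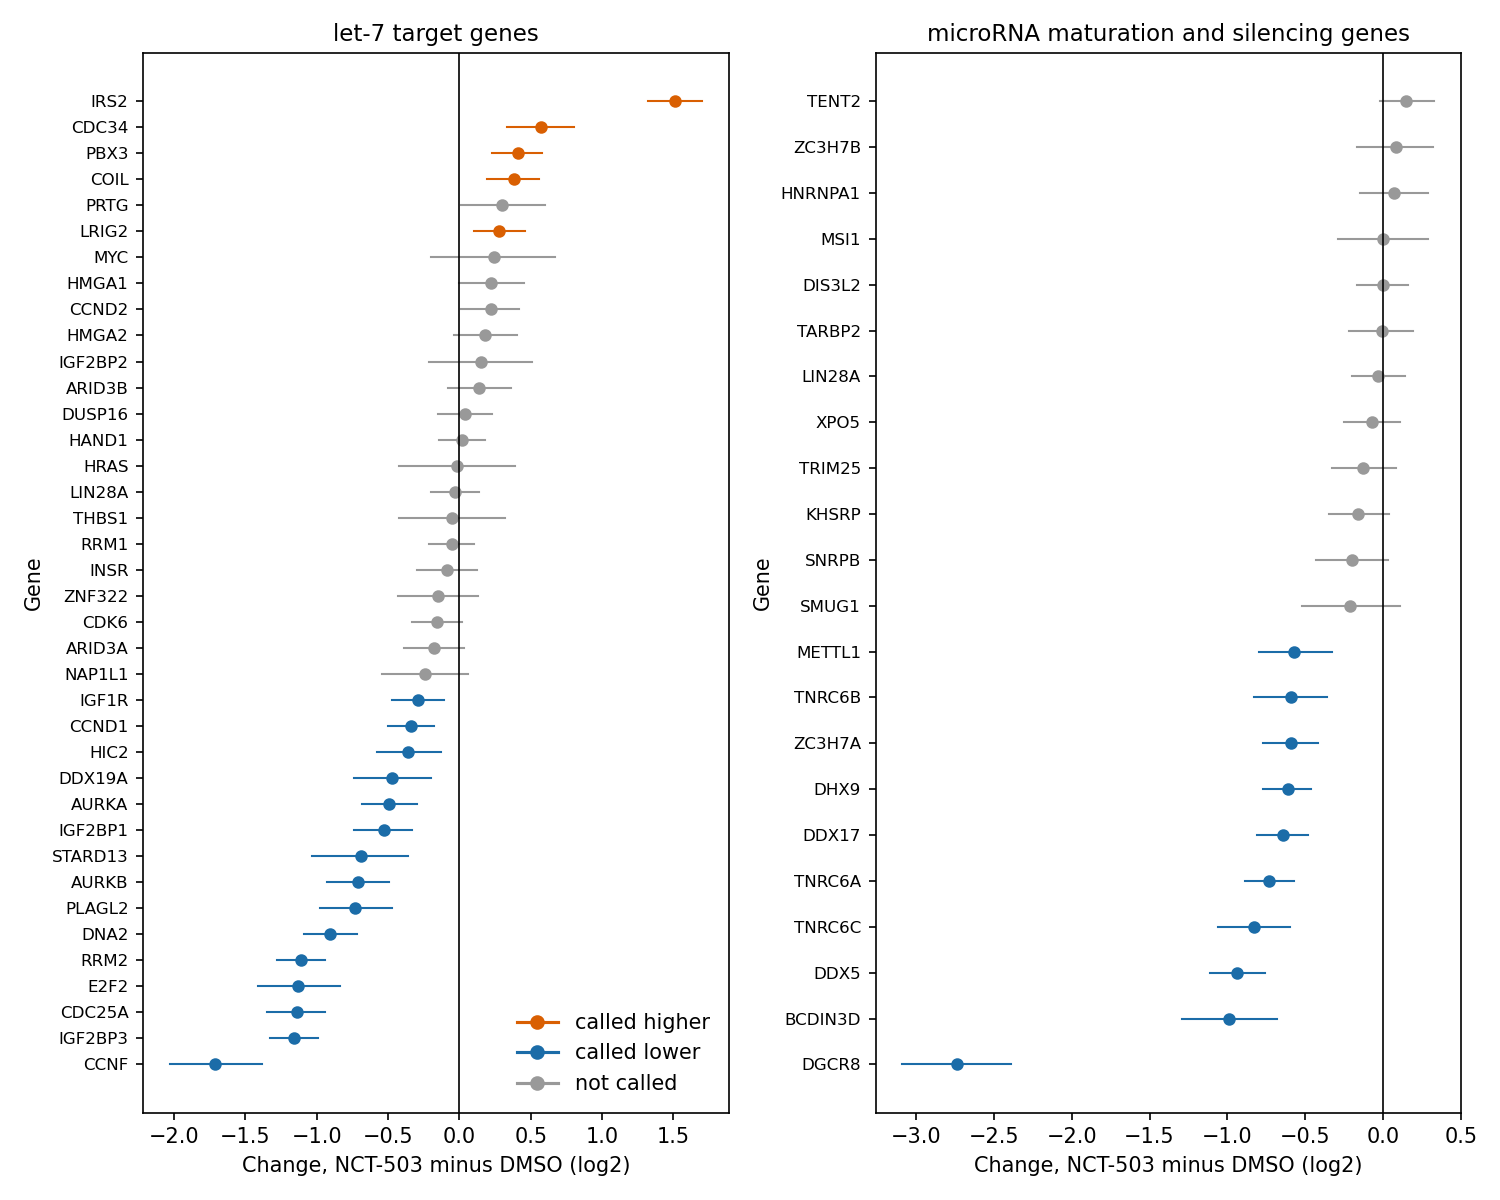
Change in log2 value (NCT-503 minus DMSO, horizontal axis) with its 95% interval for the 38 measured let-7 targets (left) and the 22 measured genes of microRNA maturation and silencing (right), coloured by call. Targets run from -1.71 (CCNF) to 1.51 (IRS2), and the maturation genes from -2.74 (DGCR8) to 0.15 (TENT2).

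Of 19 listed transcription factors and partners linked to LIN28B in neuroblastoma or stem cells, 16 were measured, 8 fell and 4 rose. These are 50% and 25% of the 16, beside 17.1% and 16.4% of all genes, and their median change was -0.12, beside 0.06 over all genes. TFAP2B fell by 1.44, NANOG by 0.84, SOX2 by 0.53, MAX, the obligate partner of MYC proteins, by 0.50, and the kinase AURKA by 0.49. RANBP2, a nucleoporin, fell by 0.43, HAND2 by 0.30 and ISL1 by 0.29. TBX2 rose by 0.93, PHOX2A by 0.75, POU5F1 by 0.52 and GATA3 by 0.37. HAND2, ISL1, PHOX2A and GATA3 are also neuroblastoma markers above, and AURKA is also a listed let-7 target, so these counts are not separate. NANOG was dim, with 2.55, 2.32 and 2.98 in the NCT-503 samples, against 3.70, 3.44 and 3.22 in the DMSO samples.

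The 5 named genes whose profile over the 6 arrays lay closest to that of LIN28B, after centring each gene on its mean, were TMEM161B-DT, ZBTB24, ANGEL2, PGBD5 and MEX3D. Their Euclidean distances to LIN28B ran from 0.0653 to 0.084 on the log2 scale. Each was lower with NCT-503, with changes of -0.61, -0.64, -0.59, -0.62 and -0.65 in that order. With 2 groups of 3 arrays, such likeness rests mainly on a similar group difference.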

How the data were processed

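The authors deposited 1 table of log2 values, 31135 rows by 6 arrays, made with Partek per the submitters' processing notes; no source used here gives its version, background correction, summarisation or normalization. The log2 scale was inferred from values between 0.58 and 13.60. Rows were named through the platform annotation: 15098 rows had 1 symbol, all matched by Entrez identifier to GRCh38.p14 names. The row with the highest mean represented each of 14779 genes. Groups were fitted with limma 3.58.1 in R 4.3.3 (lmFit, eBayes, two-sided, Benjamini-Hochberg); the fit was tested on simulated data. The number of arrays limits the precision, with a median SE of 0.105.

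Members and lists were chosen with earlier results of these data known. Named were all members, family loci and measured neighbours, up to 8 called genes per list and direction, 8 preset genes and the 5 profiles nearest to LIN28B. The other genes named, among them TNRC6B and METTL1, were chosen after their values were seen. Motifs and the host transcripts were also chosen then. Alternatives covered moderation, array weights, a replicate block, 3 scalings, a filter on dim genes, rows per gene, all rows, a stricter threshold and leaving out each array.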

Additional observations from a re-analysis of the deposited data

How the results depend on the processing

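LIN28B was called lower under all 17 alternatives (changes from -0.68 to -0.58), and so were MIRLET7F1, MIRLET7I, MIRLET7A3 and MIR98. MIRLET7E was called higher under all 17. Let-7 loci called lower numbered 2 in place of 4 without moderation and 2 at an adjusted p under 0.01, and 2 to 4 when 1 array was left out. MIRLET7D was called with trend and robust settings (adjusted p = 0.0228), array weights (0.0342) and the filter on dim genes (0.0378). With the replicate block it was called too (0.0189), and LIN28B changed by -0.65, but samples of the same letter did not deviate together (correlations -0.011, 0.016 and 0.031), so the letters are not taken to pair samples. MIRLET7G lost its call without moderation (0.077), and MIRLET7C likewise (0.124). MIR202 lost its call in 12 of 16 alternatives, among them trend and robust settings (0.129), quantile normalization (0.123), the replicate block (0.0893), no moderation (0.0697) and every row tested (0.0647). Maturation genes called higher numbered 1 with trend and robust settings. Over all genes, 4100 of the 31135 rows were lower when every row was tested, against 2534 genes, and 1682 were lower and 1226 higher at an adjusted p under 0.01. Under the scalings the median change of all genes lay between 0.04 and 0.13, and no called member changed direction. Without scanner values, rows could not be set against their background, and changes of dim loci such as MIRLET7F1 and MIRLET7C may be understated.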
